A study of Rattus norvegicus with 6 samples.

Results

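An array hybridised with RNA from rat pancreatic islets held 39727 probes for PIWI-interacting RNAs (piRNAs). Of these, 68 (0.171%) were very bright on every array and differed on average at most 4-fold between adult and newborn islets. They were chosen by 3 criteria. No spot of the probe carried an outlier mark, its level was over 7 on each of the 6 arrays, and the adult mean and the P10 mean lay at most 2 apart. A level here is log2 of the background-subtracted signal minus the 75th percentile of that array over the 8874 piRNA probes that every array read as well above background. A level over 7 therefore means a signal over 128-fold that percentile, and a difference of 2 means 4-fold. These same levels chose the probes, so the levels and the age differences below are a description and are not tested.

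The adult samples were islets of rats aged 3 months, 1 animal per sample, and the P10 samples were islets of pups aged 10 days, 2 pups pooled per sample, with 3 samples of each. No treatment, genotype or strain is given in the labels used here. Total RNA was tagged with the dye Cy3 at its 3′ ends by RNA ligase, so that any RNA with a free 3′ end can be labelled, and each array read 1 sample. The array carried no probe for any of 38 marker genes of islet, acinar, ductal, stromal, endothelial, blood and germline cells, so the cell make-up of the samples was not measured, and fewer cells of a type and less RNA per cell cannot be told apart.

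PIWI-interacting RNAs are small RNAs that load onto PIWI proteins. They are best known in the germline, where they guide the silencing of transposable elements. Islets hold the insulin-secreting beta cells, which go on maturing after birth, and the study compared piRNA levels between adult and newborn islets. The probes are named by their sequence entries (DQ followed by a number). The sources used here give no sequence, genomic position or host gene for these entries, so none is stated, and a bright probe shows that labelled RNA bound to it, not which RNA it was.

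The 68 probes held a large part of all signal from piRNA probes. They took 54.0%, 51.7% and 52.0% of the summed signal of unmarked piRNA probes in Adult 1, Adult 2 and Adult 3, against 58.6%, 76.6% and 71.9% in P10 1, P10 2 and P10 3. The mean was 52.6% ± 1.26 in adult and 69.0% ± 9.33 in P10 islets (SD, n = 3 each). Every P10 array lay above every adult array, and P10 1 was the P10 array nearest to the adults. Within slide 1, Adult 1 stood at 54.0%, below the 3 P10 arrays. Without Adult 1 and P10 1 the means were 51.9% in adult and 74.3% in P10 islets. The 68 were chosen by these same signals, so the gap in share between the ages is a description and not a test. These are shares of brightness, since probes bind their targets to different degrees, and not shares of RNA molecules.

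A few probes at the top of the scale accounted for much of this. The 26 of the 68 with a mean level over 10 took between 38.8% and 41.7% of the signal on the adult arrays and between 42.6% and 57.5% on the P10 arrays. The 7 brightest took 13.3%, 18.7% and 18.7% in Adult 1, Adult 2 and Adult 3, against 14.2%, 26.9% and 23.9% in P10 1, P10 2 and P10 3. Adult 1 and P10 1 were thus the lowest arrays of their ages for these 7.

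The place of the 68 among the brightest probes also differed between the ages. Of the 20 brightest piRNA probes of an array, 11, 10 and 11 belonged to the 68 in Adult 1, Adult 2 and Adult 3, against 13, 19 and 19 in P10 1, P10 2 and P10 3. Among the brightest 68 probes of an array, between 41 and 43 belonged to them in adult islets, against between 46 and 58 in P10 islets. More probes reached the level in adult islets. On all 3 adult arrays 113 unmarked probes were over 7, against 75 on all 3 P10 arrays, and 70 were on both lists. Those 70 were 61.9% of the adult list and 93.3% of the P10 list. The level criterion thus left out 43 probes of the adult list and 5 of the P10 list. The choice itself therefore bears on the shares and places of the 68 at each age, and no age effect is read from them.

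The difference criterion removed only 2 of the 70 probes. DQ609222 had levels of 11.63, 12.01 and 11.93 in adult islets, against 11.38, 8.03 and 8.96 in P10 islets, a difference of 2.40. DQ760315 had 11.52, 11.92 and 11.66 in adult islets, against 11.32, 7.37 and 8.12 in P10 islets, a difference of 2.76. In both, P10 1 lay near the adult arrays while P10 2 and P10 3 were lower. The probe nearest to the limit from inside was DQ618493, with 11.56, 11.99 and 11.99 in adult islets, against 11.41, 9.53 and 9.71 in P10 islets, a difference of 1.63 ± 0.52 (SE from the limma fit). It shows the same order of arrays as the 2 probes left out, with P10 1 near the adults.

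At the level limit the edge was close. DQ614588 entered with its lowest level of 7.04 in Adult 3, DQ612698 with 7.09 in Adult 1 and DQ602030 with 7.10 in P10 3. Just outside were DQ614176, at 6.88 in P10 1, and DQ747893 and DQ608469, both at 6.88 in Adult 3. Another 12 probes were over 7 on all 6 arrays but carried an outlier mark on at least 1 of them.

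When the criteria were applied to 5 arrays at a time, the levels of the array left out had no part in the choice. Its outlier marks did, since probes marked on it were dropped too. Between 67 and 72 probes were then chosen. All 67 chosen without P10 1 were over 7 on P10 1. On the other arrays, 68 of 69 were over 7 on Adult 1, 68 of 70 on Adult 2, 68 of 70 on Adult 3, 71 of 72 on P10 2 and 68 of 69 on P10 3. The lowest level found on an array left out was 6.58, on P10 2. Levels on the arrays left out were thus over 7 with 7 exceptions over the 6 arrays. Other arrays of the same age and the same probes made the choice, so this is a description and not independent support. The age difference was not checked in this way.

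The age differences were spread on both sides of 0. In 34 of the 68 the adult mean was the higher and in 34 the lower, with a median difference (adult minus P10) of -0.02 and a range from -1.24 to 1.63. Over all 11766 piRNA probes tested with 6 values the median was -0.04 and 48.3% were higher in adult islets. The difference was at most 0.5 in either direction in 42 of the 68 and over 1 in 7 (10.3%), beside 29.1% over 1 among the tested probes. None of the 68 was called in a limma fit across all tested piRNA probes (adjusted p threshold of 0.05), where 5.91% of probes were called (4.17% higher and 1.74% lower in adult islets), and 13 of the 68 had an unadjusted p below 0.05, beside 28.1% of all. The criteria used this contrast, so nothing is read from these counts.

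That balance depended on how the arrays were scaled and on which arrays and terms the fit held. With quantile normalization between arrays, 14 of the 68 were higher and 54 lower in adult islets, with a median of -0.62. The deposited value table gave the same counts of 14 and 54, with a median of -0.63. Its columns are nearly alike in median and highest value, so it is not counted as a check separate from quantile normalization. The median of all tested probes stayed at -0.01 with quantile normalization and -0.02 in the deposited table. Cyclic loess gave 27 higher and 41 lower. Normexp background correction gave 11 higher and 57 lower with local backgrounds, which reached 40397 on Adult 1. With each array's median background instead, normexp gave 31 higher and 37 lower, with a median of -0.09. With the slide as a block 50 were higher and 18 lower, with a median of 0.31, and on slide 1 alone, which held Adult 1 and all 3 P10 arrays, the median was 0.33 while that of all tested probes was 0.11. The direction of small differences was thus not the same under every setting.

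The authors' deposited table lists 1791 probes as changed between the ages, 9.66% of the 18540 in the deposited value table, with 1056 higher and 735 lower in adult islets (3.96% lower). Of these, 8 belong to the set described here (11.8% of the 68), and the authors' deposited table gives all 8 as lower in adult islets. The largest fold in the authors' deposited table among them is 3.29 for DQ625276, followed by 2.81 for DQ607785 and 2.40 for DQ619401. For DQ615120 and DQ763458 the authors' deposited table gives 2.25 and 2.24. The other 3 folds in the authors' deposited table are 2.15 for DQ762590, 2.14 for DQ620743 and 2.02 for DQ626089. With the percentile scaling used here the same 8 probes were also lower in adult islets, each by a smaller fold. Their differences lay between -1.01 (DQ625276, 2.02-fold) and -0.39 (DQ620743, 1.31-fold).

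The 7 brightest probes had mean levels between 11.53 and 11.78, with a range over the 6 arrays between 0.54 and 0.90 in each. DQ602399 had levels of 11.74, 12.10 and 12.02 in adult islets, against 11.38, 11.92 and 11.55 in P10 islets, and its processed signal lay between 371780 and 475713. For DQ617231 the levels were 12.05, 11.98 and 11.43 in adult islets, against 11.78, 11.95 and 11.46 in P10 islets. DQ762484 stood at 11.74, 11.84 and 11.66 in adult islets, against 11.63, 12.23 and 11.53 in P10 islets. The ages overlapped in all 3, and their differences of 0.34 ± 0.29, 0.09 ± 0.31 and -0.05 ± 0.31 (SE) can be set beside an SD within an age of 0.24 to 0.30.

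In the remaining 4 of the top 7 the ages overlapped too. DQ602400 averaged 11.87 ± 0.32 in adult and 11.56 ± 0.24 in P10 islets (SD, n = 3 each). DQ617460 averaged 11.78 ± 0.21 in adult and 11.63 ± 0.30 in P10 islets, and DQ614404 11.81 ± 0.37 in adult and 11.40 ± 0.21 in P10 islets. DQ614395 averaged 11.65 ± 0.26 in adult and 11.41 ± 0.24 in P10 islets. Each of the 7 brightest took between 1.57% and 4.83% of the piRNA probe signal of an array. No spot was saturated, and the brightest raw spot among the 68 reached between 53.9% and 75.7% of the scanner's saturation value, depending on the array. This concerns the scanner, and whether the signal of these probes rose in proportion to RNA was not tested.

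Below these 7, the next 3 probes in brightness varied more. DQ606028 had levels of 11.79, 11.69 and 11.91 in adult islets, against 11.36, 10.75 and 10.26 in P10 islets, with every adult array above every P10 array. DQ603804 stood at 11.67, 11.35 and 11.69 in adult islets, against 11.45, 10.22 and 10.15 in P10 islets, where P10 1 overlapped with the adults. DQ611922 ran the other way, at 11.74, 10.81 and 9.89 in adult islets, against 11.44, 11.54 and 10.97 in P10 islets. Its 3 adult arrays spanned more than the ages differed.

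Most of the flattest single profiles were found at lower levels, although the brighter probes as a set varied less. DQ614590 had 7.76, 7.58 and 7.50 in adult islets, against 7.62, 7.56 and 7.34 in P10 islets, an SD over the 6 arrays of 0.14. DQ614589 followed with an SD of 0.16, then DQ616721 and DQ614593 with 0.21 each and DQ621097 with 0.22. DQ616721 is the bright one of these, at 10.57 ± 0.17 in adult and 10.82 ± 0.19 in P10 islets (SD, n = 3 each). Over all of the 68, the SD over the 6 arrays had a median of 0.45, beside 0.48 for the 8874 probes well above background on every array. Among the 68, this median was 0.35 in the 26 with a mean level over 10 and 0.53 in the 42 at 10 or less. The range over the 6 arrays was at most 1 in 27 of the 68 and over 2 in 7.

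Differences toward higher adult levels were largest in DQ618493, described above, and in 4 others. DQ602030 had levels of 8.42, 8.73 and 8.74 in adult islets, against 7.84, 7.54 and 7.10 in P10 islets, a difference of 1.14 ± 0.31 (SE). DQ615663 stood at 8.57, 9.21 and 8.86 in adult islets, against 8.14, 7.72 and 7.41 in P10 islets. DQ765860 stood at 9.52, 9.66 and 9.45 in adult islets, against 9.07, 8.26 and 8.01 in P10 islets. In these 3, and in DQ606028 and DQ618493, no P10 array reached an adult array. All adult arrays lay above all P10 arrays in 10 of the 68 (14.7%), beside 17.0% of the tested probes.

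Lower adult levels reached the largest size in DQ603328, with 8.77, 7.61 and 7.68 in adult islets, against 8.39, 9.76 and 9.65 in P10 islets, a difference of -1.24 ± 0.50 (SE). DQ614010 had the same pattern, with 8.84, 7.96 and 7.52 in adult islets, against 8.14, 9.59 and 9.33 in P10 islets. In both, Adult 1 was the highest adult array and P10 1 the lowest P10 array, and the ages overlapped through these 2 arrays. DQ625276 had 7.56, 7.36 and 7.39 in adult islets, against 8.40, 8.82 and 8.14 in P10 islets, and here the ages did not overlap. DQ607785 averaged 8.64 ± 0.50 in adult and 9.52 ± 0.24 in P10 islets (SD, n = 3 each). All adult arrays lay below all P10 arrays in 5 of the 68 (7.35%), beside 14.7% of the tested probes.

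The criteria bounded the difference between ages but not the spread within an age, which was largest in 3 probes. DQ737336 had levels of 10.71, 8.51 and 8.22 in adult islets, against 10.33, 9.69 and 9.81 in P10 islets, the widest range of the 68 at 2.49. DQ756456 stood at 10.91, 9.88 and 9.04 in adult islets, against 10.56, 9.21 and 8.82 in P10 islets. DQ619401 stood at 9.51, 7.77 and 7.84 in adult islets, against 9.66, 8.77 and 8.29 in P10 islets. In these 3 the high array of each age was the one numbered 1. The SD within an age had a median of 0.35 in adult and 0.37 in P10 islets over the 68.

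This pattern was frequent. In 25 of the 68 (36.8%) Adult 1 and P10 1 were the 2 highest arrays, beside 5.75% of the tested piRNA probes. In these 25 the 2 arrays exceeded the mean of the other 4 by a median of 0.89 (between 0.19 and 1.50). None of the 7 brightest was among them. Over all 68 the median excess was 0.31, beside -0.03 over the tested probes. Adult 1 shared slide 1 with all 3 P10 arrays, and Adult 2 and Adult 3 were on slide 2. Adult 1 and P10 1 also correlated more closely with each other over the tested probes (r = 0.940) than P10 1 did with P10 2 (0.888) or P10 3 (0.906), across probes that are not independent replicates. With the mean of its own age taken off each probe, Adult 1 and P10 1 correlated at -0.04 over the tested probes. What Adult 1 and P10 1 share beyond their number was not tested.

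Entry numbers, which the criteria did not use, were unevenly represented. The array's entries fall into 2 blocks of numbers, DQ601959 to DQ628522 with 15173 probes and DQ684789 to DQ767590 with 24554. The lower block held 38.2% of all piRNA probes and 42.0% of those well above background on every array, but 57 of the 68 (83.8%). The upper block held the other 11, which is 0.214% of its probes well above background on every array, against 1.53% in the lower block. DQ762484, of the top 7, belongs to the upper block. Of the 11, 8 had Adult 1 and P10 1 as their highest arrays, against 17 of the 57, and their median range over the 6 arrays was 1.74, against 1.07.

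Several of the 68 had consecutive entry numbers. They formed 6 runs with 13 probes in all, of which the longest, DQ614588 to DQ614590, had 3. After each probe's own mean was taken off, the levels of 2 neighbours differed on no array by more than 0.08 (DQ603342 and DQ603343, named here after their values were seen) to 0.46 (DQ614588 and DQ614589). The median of this largest gap was 0.24 over the 7 pairs, beside 0.88 over the 2271 pairs of the 68 without consecutive numbers, of which 11.9% had a gap of at most 0.46. Over 1701 consecutive pairs of any probes well above background on every array the median was 0.95. The criteria used these levels, so the gaps are a description. Whether such neighbours share sequence was not tested, and where they do they are not separate measurements.

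The run around DQ614588 extended beyond the 68. DQ614588 had levels of 7.38, 7.09 and 7.04 in adult islets, against 7.70, 7.59 and 7.50 in P10 islets, and DQ614589 had 7.79, 7.89 and 7.51 in adult islets, against 7.91, 7.68 and 7.59 in P10 islets. DQ614592 and DQ614593 are also among the 68, with differences of -0.14 and -0.27. DQ614591, between them, missed the level limit, with levels between 6.85 and 7.38, and DQ614594 lay between 5.70 and 6.65. Their differences between the ages were -0.29 and -0.33. By contrast DQ614587, the entry before the run, was well above background on no array (DQ614587, DQ614591, DQ614592 and DQ614594 were named after their values were seen).

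DQ602399 and DQ602400 had age differences of 0.34 and 0.31, and their profiles differed by at most 0.16 on any array. The next entry, DQ602401, lay between -0.37 and 3.53, and the one before, DQ602398, was well above background on 4 of the 6 arrays (both were named after their values were seen). DQ623287, of another run, had levels of 10.52, 10.51 and 10.45 in adult islets, against 10.99, 11.35 and 10.62 in P10 islets. Its neighbour DQ623288 had 10.82, 10.92 and 10.97 in adult islets, against 11.03, 11.54 and 11.01 in P10 islets. In both probes every adult array lay below every P10 array, with differences of -0.49 and -0.29.

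Over all of the 68, 89 probes on the array carried the entry number directly before or after. Of these, 13 belonged to the 68. Among the other 76, 35 (46.1%) were well above background on all 6 arrays, beside 22.3% of all piRNA probes, and 24 were so on none.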

How the data were processed

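Intensity values were deposited by the authors as scanner output of Agilent Feature Extraction 11.0.1.1, per the file headers, with local background subtracted and no normalization between arrays. The deposited value table covers 18540 probes as log2 values, with a median of 3.66 on every array. Its scale and direction match the log2 columns of the authors' deposited comparison table, which, per the file headers, adds a fold between age means and an unadjusted p-value from an unpaired test. The highest value of the deposited value table was 18.89 on every array but Adult 1, where it was 19.04. Columns so alike are what quantile normalization between arrays would give, but the sources used here do not state how the authors normalized the values.

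Each array held 42734 spots, of which 1417 control spots were left out. Marked spots were left out (between 13 and 83 piRNA probes per array). Between 27.6% and 36.7% of piRNA probes were well above background. The number of arrays, 3 per age, limits the precision. The p-values set the age difference against the spread among arrays of the same age. That spread mixes adult samples of 1 animal with P10 pools of 2 pups, and slide 2 held adult arrays only. Slides were read from the scan identifiers.

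The 11900 piRNA probes that all 3 arrays of at least 1 age read as well above background were fitted with limma 3.58.1 in R 4.3.3 (adult minus P10, two-sided, Benjamini-Hochberg over all of them), after a test on simulated data. Normexp used the median spot signal, the mean not being among the columns used.

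The members, lists and tests were chosen with earlier results of these data known. Named probes are the 10 brightest, the 5 with the lowest SD, the 5 largest differences each way, the 3 nearest each limit, the 3 longest number runs, the 3 highest and lowest spreads within ages, and those in the authors' deposited table. Sequences were not used here.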

Additional observations from a re-analysis of the deposited data

Results flagged for a closer look

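A signal outside the piRNA measurement was found in the probe ppt-miR535aP, made for a plant microRNA. Its levels were 6.57, 5.95 and 5.49 in adult islets, against 7.68, 5.49 and 6.24 in P10 islets, so its lowest level was 5.49 and it was over 7 on P10 1 alone. It is named because the comparison of the piRNA probes does not use it and no control sample gives its background. Of the 159 probes for other RNAs, 0 were over 7 on all 6 arrays. The plant probe was not the brightest of them. A_44_P222865, with levels between 6.69 and 8.78, lay above it on every array (named after its values were seen).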

How the results depend on the processing

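The set of 68 probes became 42 with normexp (41 of them shared), 201 when the percentile was taken over all piRNA probes (68 shared) and 42 at a level over 8 (42 shared). With 1 array left out, and its outlier marks not used, the set held between 69 and 73. Under the other settings, including slide 1 alone and both arrays numbered 1 left out, it held between 52 and 96. On Adult 1 local backgrounds reached 40397, and normexp left a median corrected signal of 649 there, against 56.5 to 59.0 on the 6 arrays with each array's median background instead. That setting, and leaving out both arrays numbered 1, were chosen after seeing the data. The median difference over the 68, -0.02, moved by more than 1 SD between arrays to -0.61 with normexp, -0.62 with quantile normalization, -0.63 in the deposited value table, 0.31 with the slide as a block and 0.33 on slide 1 alone, and lay between -0.12 and 0.09 with 1 array left out. With the slide as a block and on slide 1 alone, Adult 1 was the only adult array that bore on the difference. Normexp moved the median of all tested probes to 0.31. The signal share was 38.7% in adult and 56.6% in P10 islets with normexp, 46.4% in adult and 59.3% in P10 islets with each array's median background, and 49.9% in adult islets without background correction. With 1 array left out it lay between 51.9% and 53.0% in adult and between 65.3% and 74.3% in P10 islets. Calls over all probes (703, with 496 higher and 207 lower in adult islets) were 66, 17 and 49 with normexp, 4258, 1853 and 2405 with array weights, and 3930, 1531 and 2399 without both arrays numbered 1. With each array's median background 136 were lower. With all piRNA probes tested there were 0, 0 and 0 (limma, 5137 with an unadjusted p below 0.05), and with the slide as a block 1, 1 and 0 (DQ750471). Leaving out 1 array gave between 0 and 2092 calls, between 0 and 1043 higher and between 0 and 1184 lower: 0 without Adult 2, Adult 3 or P10 3 (limma, with 2382, 2192 and 2295 at an unadjusted p below 0.05), 146 without P10 2, 2011 without P10 1 and 2092 without Adult 1. The replicate block gave 0, 0 and 0 (limma, 3175 with an unadjusted p below 0.05) and left the median difference at -0.02, and the deviations of same-numbered arrays over the tested probes correlated at -0.04, 0.24 and -0.23, not over 0.1 in every pair, so the numbers were not taken as pairs. Among the 68, 0 were called as reported, 12 (17.6%) with array weights beside 35.8% of tested probes, 12 without both arrays numbered 1 (17.6% beside 31.5%), 7 without P10 1 (10.3% beside 16.3%), 6 with each array's median background (8.82% beside 4.81%), 3 without background correction (4.41% beside 6.08%), 2 with quantile normalization (2.94% beside 6.80%), 2 in the deposited value table (2.94% beside 7.70%) and 2 without Adult 1 (2.94% beside 17.4%). The cause of these moves was not tested.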
